A study of Sus scrofa with 20 samples.

Results

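The genes described here build and edit the sugar chains of the uterine cell surface. They were chosen by name, as every row of the count table whose gene symbol begins with B3GNT, B3GALT, B4GALT, GALNT, GCNT, FUT, FUCA, ST3GAL, ST6GAL, CHST, CHSY or MGAT, together with A4GALT. This gave 95 genes of the 30345 gene rows used, and no measured value entered the choice. The symbols also take in a pair of fucose-removing enzymes (FUCA1 and FUCA2) and the carbohydrate sulfotransferases (CHST), which are not glycosyltransferases. RefSeq (assembly Sscrofa11.1) lists all 95 under the identifier and symbol of the table.

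Messenger RNA was sequenced from the uterus of 20 crossbred Large White by Landrace sows without a genetic modification, with 1 library per sow, 6 days after the onset of estrus. There were 4 groups of 5 sows. FR1 sows were inseminated with the sperm-rich fraction of the boar ejaculate, FR2 sows with the rich and intermediate fractions together, FR3 sows with the rich, intermediate and poor fractions, and control sows were left without insemination. Semen came from 3 Pietrain boars and was deposited past the cervix every 24 h during standing estrus (2.53 ± 0.74 inseminations per sow, SD). The series asks how the deposited fractions alter uterine gene expression. The sources used here do not say which boar served which sow or which sows held embryos, so semen and early pregnancy cannot be told apart as sources of a difference from control. Libraries are named by group and by the column number of the table, because its columns do not give the sow.

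The glycocalyx is the coat of glycoproteins, glycolipids and proteoglycans on the surface of a cell. Its O-linked chains start when a GALNT enzyme adds N-acetylgalactosamine to a serine or threonine. The chains are then branched (GCNT, and MGAT on N-linked chains), extended with galactose and N-acetylglucosamine (B3GNT, B4GALT, B3GALT) and capped with fucose (FUT), sialic acid (ST3GAL, ST6GAL) or sulfate (CHST). In the uterus the epithelial coat is rich in such mucin-type chains, and it is the surface that spermatozoa and, later, embryos meet.

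The 15 inseminated libraries held 33 to 62.9 M counts and the 5 control libraries 39.9 to 50.9 M counts. The uterine genes ESR1, PGR, HOXA10, HOXA11, HOXD10 and EMX2 were detected in both sets, with a summed level of 416 to 775 CPM (counts scaled to a common library total with TMM factors) in inseminated and 339 to 798 CPM in control libraries. The tissue was bulk uterus, and in bulk tissue fewer cells of a type and less RNA per cell cannot be told apart. Some libraries stood apart. The mean log2(CPM + 0.5) of 12 epithelium markers was 6.37 in FR1_1, 6.44 in FR1_4, 6.80 in FR2_3 and 6.30 in FR3_4, between 6.96 and 8.00 in the other 11 inseminated libraries, and 7.70 to 8.10 in controls. Of those 12 markers none was called higher and 6 were called lower in inseminated uteri, among them KRT18, EPCAM and ELF3. GRHL2 (log2 change 0.84) and KRT19 (0.21) went the other way and were not called, so the list did not fall as one. None of the 12 was at 0 in any group. A list of 12 stress and immediate-early genes that respond to tissue handling had a mean log2 level of 3.99 to 5.48 in inseminated libraries. Its level was 3.61, 6.97, 8.01, 5.81 and 4.35 in CONTROL_1 to CONTROL_5. Of the 11 tested genes of this list, 7 were called lower and none higher. Smooth muscle markers had a mean log2 level of 6.38, 11.14, 10.61, 10.15 and 9.74 in CONTROL_1 to CONTROL_5. Their level was 8.19 to 10.83 in inseminated libraries, and none of the 8 was called. The part of epithelial content, handling and tissue layer in the results below was not tested beyond the repeats given beside them.

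Of the 95 genes, 89 passed the filter on low counts and were tested across all 17745 genes with edgeR's quasi-likelihood test. The other 6 (GALNTL6, GALNT8, GALNT14, FUT9, CHST4 and ST6GALNAC5) had between 4 and 20 counts in all over the 15 inseminated libraries and between 0 and 12 over the 5 control libraries. In all inseminated uteri against control, 22 of the 89 were called at a Benjamini-Hochberg adjusted p below 0.05, against 11.1% of all genes tested. The 22 comprised 17 lower genes (all genes, 8.2% lower) and 5 higher genes (all genes, 2.87% higher). The median log2 change was -0.06 over the 89 genes and -0.05 over all genes tested. No called gene separated the groups completely, which 0.468% of all genes did. For the lower genes, 4 control libraries lay above every inseminated library in 5 cases, 3 in 5 cases and 2 in 7 cases. CONTROL_3 held the highest value of 11 of the 17, and CONTROL_4 that of 4. Neither the separation nor the library with the highest value was counted over all genes called lower.

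**Figure D1:**
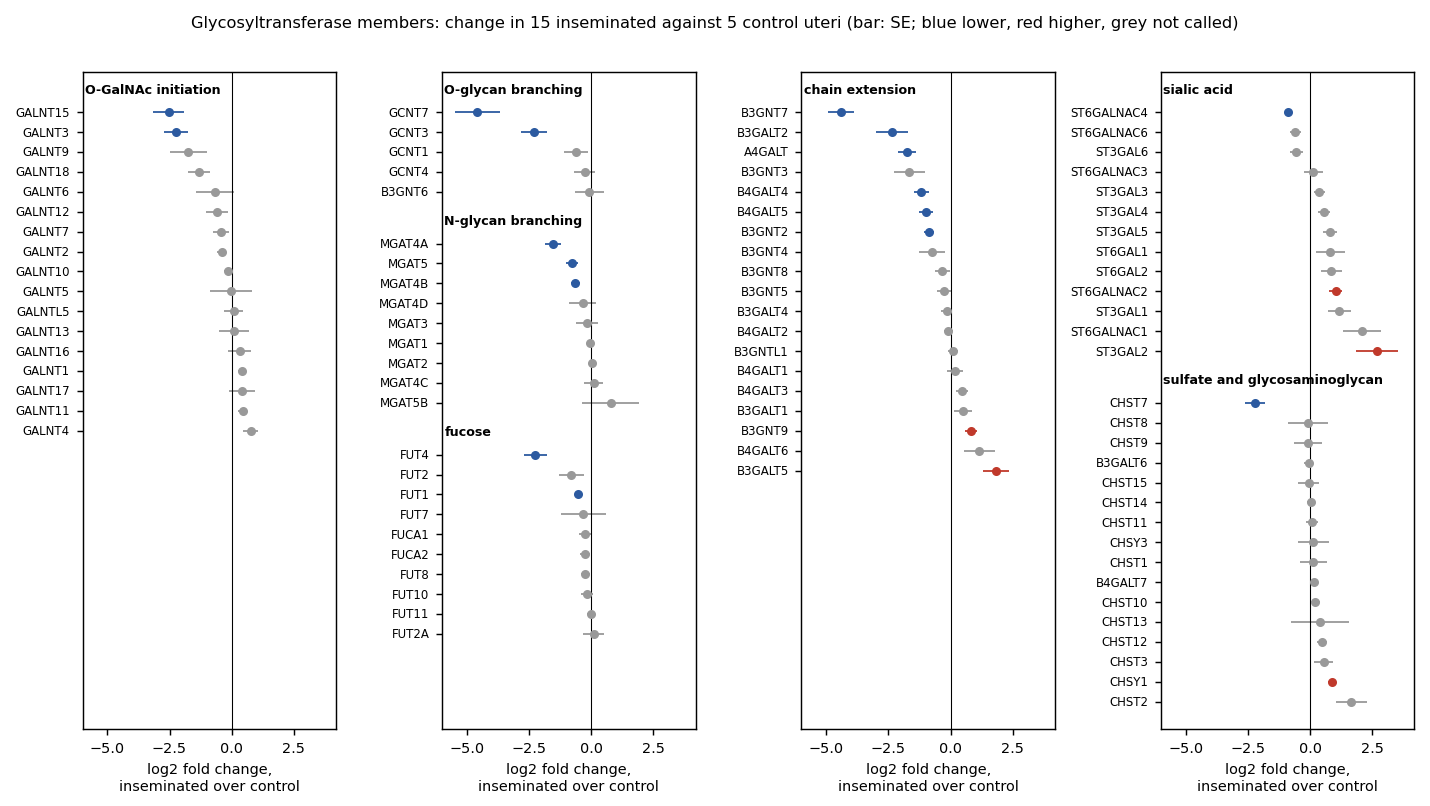
Log2 fold change (horizontal axis) of the 89 tested genes, 15 inseminated over 5 control uteri, by role; bars are standard errors, blue points are genes called lower, red points genes called higher and grey points genes not called. The blue points lie in every panel, and the sialic acid genes have 10 of 13 points to the right of 0.

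The count changed with the control libraries used. Without CONTROL_3 it was 11 (all genes, 5.5%). Without CONTROL_1, CONTROL_2, CONTROL_4 or CONTROL_5 it was 21, 18, 17 or 30 (all genes, 2399, 2026, 1579 or 2730, against 1965). The fit without CONTROL_2, CONTROL_3 and CONTROL_4 kept only CONTROL_1 and CONTROL_5, which also lowers the power to call. Its count was 3 (all genes, 2.78%), of which 2 were among the 22. Without the 4 inseminated libraries of low epithelial level it was 20 (all genes, 10.8%), of which 17 were among the 22; B3GALT2, B3GALT5, B3GNT9, B4GALT5 and ST6GALNAC2 were the calls lost. An exact rank-sum test over the 15504 possible sets of 5 libraries called 4 of them, B3GNT7, ST6GALNAC4, CHSY1 and FUT1, against 1.88% of all genes. With the epithelial score as a covariate 18 genes were called (all genes, 15.6%), and 11 of these were among the 22. The calls lost under the covariate were A4GALT, B3GALT2, B3GALT5, B3GNT9, B4GALT5, GALNT15, GALNT3, GCNT7, MGAT4A, MGAT5 and ST6GALNAC2. Over 20 repeats that each left out 1 library, 8 genes kept their call every time: B3GNT7, ST6GALNAC4, CHSY1, CHST7, FUT1, MGAT4A, A4GALT and GALNT3. The share of all genes that kept their call every time was not counted.

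**Figure D2:**
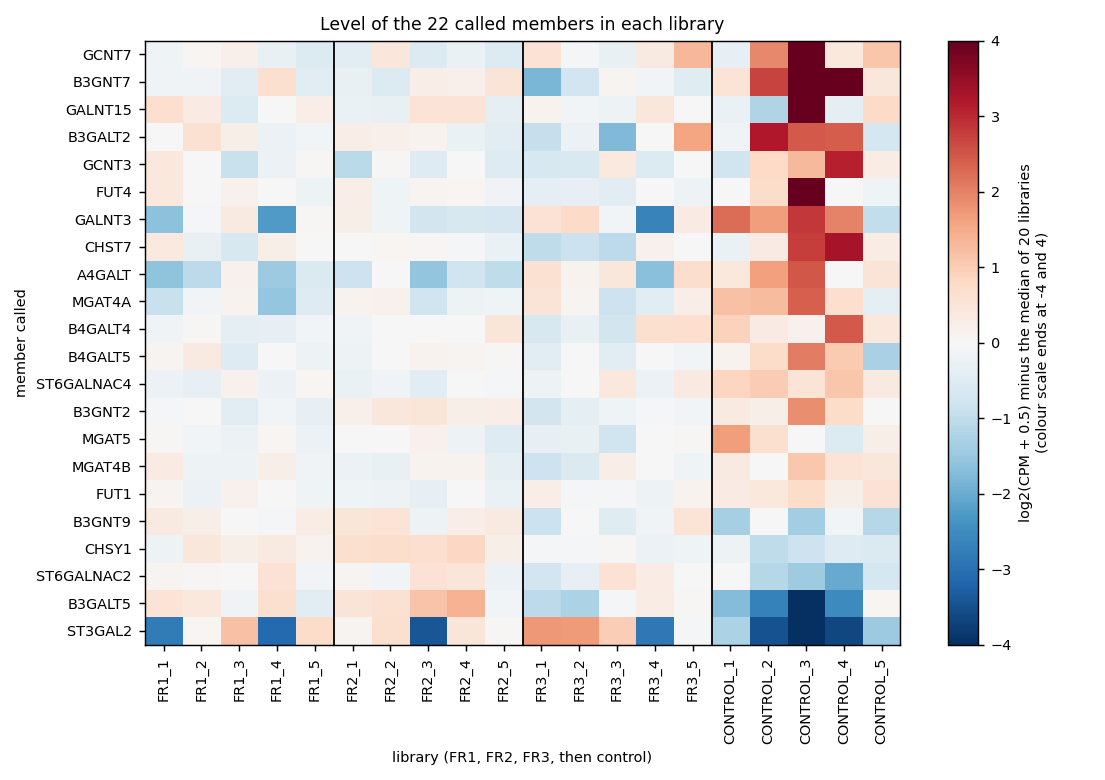
Level of each of the 22 called genes (rows) in each library (columns), as log2(CPM + 0.5) minus the median of the 20 libraries; red is above and blue below the median, and the colour scale ends at -4 and 4. CONTROL_3 and CONTROL_4 hold most of the dark red cells, and ST3GAL2 is dark blue in FR1_1, FR1_4, FR2_3 and FR3_4 as well as in controls.

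The GALNT family starts O-linked chains, though not every gene so named, such as GALNTL5, need have that activity. Of its 17 tested genes, 2 were lower and none higher (11.8%, near the 11.1% of all genes). GALNT3, whose enzyme glycosylates mucins and the hormone FGF23, ranged from 0.71 through a median of 6.70 to 12.7 CPM in inseminated libraries, against 35.8, 24.2, 54.2, 30.4 and 3.45 CPM in CONTROL_1 to CONTROL_5. CONTROL_1 to CONTROL_4 were thus above every inseminated library, and CONTROL_5 was below most of them. Its log2 change was -2.24 ± 0.49 (SE, adjusted p = 0.00602), but -0.59 (adjusted p = 0.381) with the epithelial score as a covariate. GALNT15 was at 1.11, 1.91 and 3.24 CPM (lowest, median and highest) in inseminated libraries and at 53.0 CPM in CONTROL_3, with 0.537 to 3.50 CPM in the other controls. Its call (-2.53 ± 0.62, adjusted p = 0.0129) was lost without CONTROL_3, where the change was 0.28.

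GALNT1, a broadly expressed member of the family, was not called: it averaged 177 ± 32.0 CPM in inseminated libraries (SD, n = 15) and 132 ± 25.5 CPM in controls (SD, n = 5), with an adjusted p of 0.0732. GALNT12, a colon-expressed member in humans, was not called either (-0.60 ± 0.44, adjusted p = 0.423), and its highest value, 41.5 CPM, was in CONTROL_4, without which the change was 0.15. With the epithelial score as a covariate it was called lower (-1.46, adjusted p = 0.0465). GALNT6, the closest relative of GALNT3, was also not called (-0.67 ± 0.78, adjusted p = 0.639). It varied more within groups than between them: it was at 1.92, 0.768, 3.81 and 1.82 CPM in FR1_1, FR1_4, FR2_3 and FR3_4, at 23.9 to 131 CPM in the other inseminated libraries and at 14.2 to 166 CPM in controls. The sign of its change turned without CONTROL_4 (0.14), without CONTROL_2, CONTROL_3 and CONTROL_4 (0.30) and with the epithelial score as a covariate (1.42).

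Branching of O-linked chains, a role that held the GCNT genes and B3GNT6, gave 2 lower genes of 5 tested and none higher. That is 40%, against 8.2% of all genes lower and 11.1% called. GCNT3, a mucin-type branching enzyme, was at 0.217, 0.768 and 1.51 CPM (lowest, median and highest) in inseminated libraries, against 0.356, 2.12, 3.21, 12.5 and 1.34 CPM in CONTROL_1 to CONTROL_5. Its log2 change was -2.31 ± 0.51 (adjusted p = 0.00688) and -1.15 (adjusted p = 0.155) without CONTROL_4. GCNT7, a relative of unsettled activity, reached at most 1.30 CPM in inseminated libraries. In controls it was at 0.0838, 2.25, 22.9, 0.482 and 1.07 CPM, so CONTROL_3 alone stood far above the rest. The change of -4.57 ± 0.91 (adjusted p = 0.00308) became -2.12 (adjusted p = 0.182) without CONTROL_3. The gene also overlaps RTFDC1 in RefSeq, whose highest level was in another library, CONTROL_5. GCNT1, which branches mucin-type chains and makes selectin ligands on white blood cells, was not called (-0.61 ± 0.50, adjusted p = 0.478). It was at 12.2, 8.67, 15.6 and 15.6 CPM in FR1_1, FR1_4, FR2_3 and FR3_4, at 32.2 to 180.3 CPM in the other inseminated libraries and at 23.6 to 180.3 CPM in controls.

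On N-linked chains, 3 of 9 tested MGAT genes were lower and none higher (33.3%, against 8.2% of all genes lower and 11.1% called). MGAT4A, which adds a branch to the mannose core, was at 5.66, 15.6 and 25.4 CPM (lowest, median and highest) in inseminated libraries, against 40.3, 42.8, 95.2, 28.3 and 13.8 CPM in CONTROL_1 to CONTROL_5. CONTROL_1 to CONTROL_4 were above every inseminated library, and the log2 change was -1.53 ± 0.31 (adjusted p = 0.00355). With the epithelial score as a covariate it was -0.94 (adjusted p = 0.0987). MGAT4B, its paralog, averaged 137 ± 29.6 CPM in inseminated libraries (SD, n = 15) and 211 ± 61.7 CPM in controls (SD, n = 5), a change of -0.63 ± 0.17 (adjusted p = 0.0259) that was no longer called without CONTROL_3 (-0.44), CONTROL_4 (-0.61) or FR3_2 (-0.60).

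MGAT5 adds the branch on which galectin ligands are built. It was at 13.8 to 27.5 CPM in inseminated libraries, against 78.8, 38.3, 24.8, 16.5 and 28.5 CPM in controls. The change of -0.76 ± 0.23 (adjusted p = 0.0427) was -0.29 without CONTROL_1 and was also lost without CONTROL_2 (-0.75); the call held in 7 of the 20 repeats that left out 1 library, and was lost as well without FR1_1, FR1_2, FR1_3, FR1_5, each FR2 library except FR2_3, and FR3_1, FR3_2 or FR3_3 (-0.77 to -0.70). A RefSeq gene that overlaps it, LOC100512195, was likewise highest in CONTROL_1, at 108 CPM, against 30.2 to 62.6 CPM in inseminated libraries.

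Of the 19 tested genes of chain extension, 6 were lower and 2 higher (42.1% called, against 11.1% of all genes, 8.2% lower and 2.87% higher). B3GNT7, which extends the poly-N-acetyllactosamine chains that carry keratan sulfate, was at 3.53, 3.53, 2.79, 6.32 and 2.81 CPM in FR1_1 to FR1_5, at 3.08, 2.51, 4.80, 4.54 and 5.74 CPM in FR2_1 to FR2_5 and at 0.729, 2.06, 4.25, 3.58 and 2.67 CPM in FR3_1 to FR3_5. In CONTROL_1 to CONTROL_5 it was at 5.86, 28.0, 173, 157 and 5.59 CPM. CONTROL_2, CONTROL_3 and CONTROL_4 were far above every inseminated library, while CONTROL_1 and CONTROL_5 lay within their upper end. The log2 change was -4.41 ± 0.53 (adjusted p = 8.18e-05). Without CONTROL_2, CONTROL_3 and CONTROL_4 it was -0.69 (adjusted p = 0.424). An overlapping uncharacterised RefSeq gene, LOC110257014, was also high in CONTROL_3 and CONTROL_4, at 6.41 and 9.76 CPM, against at most 0.44 CPM in inseminated libraries.

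A4GALT makes the glycolipid globotriaosylceramide. It ranged from 36.7 through a median of 67.6 to 191 CPM in inseminated libraries, against 157, 368, 653, 119.7 and 166 CPM in controls. In 10 inseminated libraries the level was below every control. The log2 change was -1.75 ± 0.37 (adjusted p = 0.00445), and -0.72 (adjusted p = 0.174) with the epithelial score as a covariate. It was at 37.9, 42.2, 38.9 and 36.7 CPM in FR1_1, FR1_4, FR2_3 and FR3_4, the lowest 4 values of the series.

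B3GNT2, the main enzyme of poly-N-acetyllactosamine synthesis, fell to 19.9 ± 4.73 CPM in inseminated libraries (SD, n = 15), against 35.5 ± 22.3 CPM in controls (SD, n = 5). CONTROL_3 was at 74.3 CPM, and without it the change of -0.86 ± 0.21 (adjusted p = 0.0122) was -0.40 and no longer called. B4GALT5, a lactosylceramide synthase, was at 33.5 to 61.7 CPM in inseminated libraries and at 53.4, 80.9, 203, 101 and 19.4 CPM in controls. Its change of -0.98 ± 0.28 (adjusted p = 0.0319) was lost without CONTROL_3 (-0.46), CONTROL_4 (-0.93) or FR2_1 (-0.96). B4GALT4 was at 7.76 to 21.7 CPM, against 15.0 to 25.7 CPM in 4 controls and 74.5 CPM in CONTROL_4. Without that library the change of -1.18 ± 0.30 (adjusted p = 0.0151) was -0.49. B3GALT2 was at 0 to 4.55 CPM in inseminated libraries, against 1.05, 15.1, 8.87, 8.72 and 0.556 CPM in controls. Its change of -2.36 ± 0.65 (adjusted p = 0.0251) lost its call without CONTROL_2 (-1.84), CONTROL_3 (-2.26) or CONTROL_4 (-2.25).

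The higher genes of this role were B3GALT5 and B3GNT9. B3GALT5 builds the chains that carry the Lewis a antigen and elongates globo-series glycolipids. It was at 89.2, 81.9, 54.7, 94.5 and 44.6 CPM in FR1_1 to FR1_5, at 86.6, 93.3, 134, 160.0 and 55.9 CPM in FR2_1 to FR2_5 and at 29.3, 25.1, 58.5, 75.3 and 63.1 CPM in FR3_1 to FR3_5. In CONTROL_1 to CONTROL_5 it was at 17.9, 8.87, 2.04, 9.90 and 63.6 CPM. CONTROL_1 to CONTROL_4 were below every inseminated library, and CONTROL_5 lay in the middle of the inseminated range. The log2 change of 1.84 ± 0.53 (adjusted p = 0.0323) was 2.93 without CONTROL_5, and fell short of the threshold without CONTROL_1 (1.79), CONTROL_2 (1.65), CONTROL_3 (1.55) or CONTROL_4 (1.67). B3GNT9 averaged 22 ± 5.51 CPM in inseminated libraries (SD, n = 15) and 12.4 ± 6.25 CPM in controls (SD, n = 5), a change of 0.82 ± 0.25 (adjusted p = 0.0436) whose call held in 7 of the 20 repeats that left out 1 library. It fell short without CONTROL_1 (0.68), CONTROL_3 (0.67) or CONTROL_5 (0.71), and also without FR1_1, FR1_2, FR1_5, FR3_2, FR3_4, FR3_5 or any FR2 library except FR2_3 (0.74 to 0.82).

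Among those not called, B3GNT3, which extends O-linked chains on ligands of L-selectin, was at 3.67 to 36.9 CPM in inseminated libraries and at 191 CPM in CONTROL_3, with 4.91 to 23.5 CPM in the other controls. Its change of -1.66 ± 0.61 (adjusted p = 0.0898) was 0.40 without CONTROL_3. It passed the threshold without CONTROL_4 (-1.95, adjusted p = 0.0487) or CONTROL_5 (-1.96, adjusted p = 0.0307). B4GALT1, the main galactosyltransferase of N-linked chains and the lactose synthase of milk, averaged 248 ± 121 CPM in inseminated libraries and 211 ± 106 CPM in controls and was not called (adjusted p = 0.758) except as a higher gene with the epithelial score as a covariate (0.97, adjusted p = 0.0286).

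The fucose genes gave 2 lower genes of 10 tested and none higher (20%, against 8.2% of all genes lower and 11.1% called). FUT1 makes the H antigen of the blood group system, and in pigs it is known for its part in intestinal binding of fimbriated Escherichia coli. It was at 35.4, 27.8, 37.7, 32.7 and 29.5 CPM in FR1_1 to FR1_5, at 29.1, 28.8, 26.3, 33.6 and 27.2 CPM in FR2_1 to FR2_5 and at 40.0, 31.1, 32.3, 28.7 and 36.4 CPM in FR3_1 to FR3_5. Controls were at 41.5, 44.3, 55.9, 39.0 and 49.4 CPM in CONTROL_1 to CONTROL_5. The groups overlapped only between FR3_1 and CONTROL_4. The log2 change was small, -0.54 ± 0.11 (adjusted p = 0.00322), and -0.50 (adjusted p = 0.0695) without CONTROL_2, CONTROL_3 and CONTROL_4. FUT1, FUT2 and FUT2A are neighbours of similar sequence, so the division of reads among them is uncertain.

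FUT4, which makes the Lewis x antigen of myeloid cells, was at 11.5 to 20.9 CPM in inseminated libraries and at 15.5, 26.2, 287, 15.8 and 13.9 CPM in controls. CONTROL_3 held the difference: the change of -2.25 ± 0.47 (adjusted p = 0.00433) was -0.23 (adjusted p = 0.472) without it. The summed level of the neutrophil markers was 0.652 to 16.5 CPM in inseminated libraries, against 1.36, 35.2, 83.9, 18.2 and 4.35 CPM in CONTROL_1 to CONTROL_5. Most of the sum in CONTROL_3 was CSF3R (77.3 CPM), whereas MMP8 was highest in CONTROL_2 (32.5 CPM) and CXCR2 was at most 0.284 CPM in any control. The part of such cells in the FUT4 level was not tested. FUT2, which makes the H antigen of secretions, was not called (-0.81 ± 0.50, adjusted p = 0.332), with 12.8 to 126 CPM in inseminated libraries and 10.1 to 170.2 CPM in controls. FUT8, the enzyme of core fucose, averaged 29.8 ± 3.96 CPM in inseminated libraries and 35.0 ± 15.3 CPM in controls (adjusted p = 0.464). FUCA1, the lysosomal fucosidase, averaged 54.6 ± 16.0 CPM in inseminated libraries and 63.9 ± 36.8 CPM in controls (adjusted p = 0.529).

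Of 13 tested sialyltransferases, 2 were higher and 1 lower (23.1% called, against 11.1% of all genes, 2.87% higher and 8.2% lower), 10 had a positive change, and their median log2 change was 0.79, against -0.05 over all genes tested. ST6GALNAC4 adds sialic acid to already sialylated mucin-type cores. It was at 70.6, 65.4, 92.9, 69.7 and 87.1 CPM in FR1_1 to FR1_5, at 68.1, 74.1, 61.7, 81.8 and 79.0 CPM in FR2_1 to FR2_5 and at 71.9, 83.4, 111, 69.8 and 106 CPM in FR3_1 to FR3_5. Controls were at 149.6, 168, 121, 178 and 105 CPM in CONTROL_1 to CONTROL_5, so 4 of them were above every inseminated library. The log2 change was -0.87 ± 0.14 (adjusted p = 0.000489), and -0.67 (adjusted p = 0.051) without CONTROL_2, CONTROL_3 and CONTROL_4.

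ST6GALNAC2, which sialylates the first sugar of mucin-type chains, was at 47.7, 85.3 and 124 CPM (lowest, median and highest) in inseminated libraries, against 80.8, 36.6, 30.3, 20.0 and 50.5 CPM in controls. Its change of 1.04 ± 0.27 (adjusted p = 0.0171) was 0.95 (adjusted p = 0.0664) without CONTROL_3. An overlapping RefSeq gene, LOC100517116, was at 29.2 to 58.2 CPM in inseminated libraries and at 49.2, 17.2, 9.83, 27.6 and 63.4 CPM in controls.

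ST3GAL2, which caps glycolipids and mucin-type cores with sialic acid, varied widely among inseminated libraries. It was at 27.0, 22, 17.3 and 26.1 CPM in FR1_1, FR1_4, FR2_3 and FR3_4 and at 187 to 635 CPM in the other 11 inseminated libraries, against 79.4, 16.5, 10.1, 14.9 and 69.9 CPM in controls. The change of 2.68 ± 0.85 (adjusted p = 0.0472) kept its call in 6 of the 20 repeats that left out 1 library, and was 2.49 without CONTROL_2, 2.43 without CONTROL_3 and 2.47 without CONTROL_4, none of them called. Leaving out any inseminated library other than FR1_1, FR1_4, FR2_3 and FR3_4 also ended the call, at 2.52 to 2.74. Without those 4 libraries together the change was 3.09 (adjusted p = 0.00352), and with the epithelial score as a covariate it was 4.09 (adjusted p = 0.000919). ST3GAL1, the enzyme that caps the basic mucin-type core, averaged 25.4 ± 9.59 CPM in inseminated libraries and 11.0 ± 10.5 CPM in controls. It was not called (1.18 ± 0.46, adjusted p = 0.106) except without CONTROL_5 (1.78, adjusted p = 0.0155) and with limma-voom (1.67, adjusted p = 0.0375). ST3GAL4, which makes sialylated Lewis antigens, averaged 20.9 ± 6.15 CPM in inseminated libraries and 14.2 ± 4.25 CPM in controls (adjusted p = 0.15). ST6GAL1, the main sialyltransferase of N-linked chains, ran from 7.10 to 20.1 CPM in inseminated libraries, whereas CONTROL_1 to CONTROL_4 held 6.23 to 14.2 CPM and CONTROL_5 was listed at 0. That 0 may be a failed estimate. ST6GAL1 was not called with it (0.82 ± 0.59, adjusted p = 0.41) or without CONTROL_5 (0.50, adjusted p = 0.261). LOC100519216, which overlaps it in RefSeq, was at 1.91, 3.90, 3.79, 2.99 and 6.18 CPM in CONTROL_1 to CONTROL_5. In inseminated libraries LOC100519216 was at 1.11 to 6.70 CPM, and its part in the 0 was not tested.

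**Figure D3:**
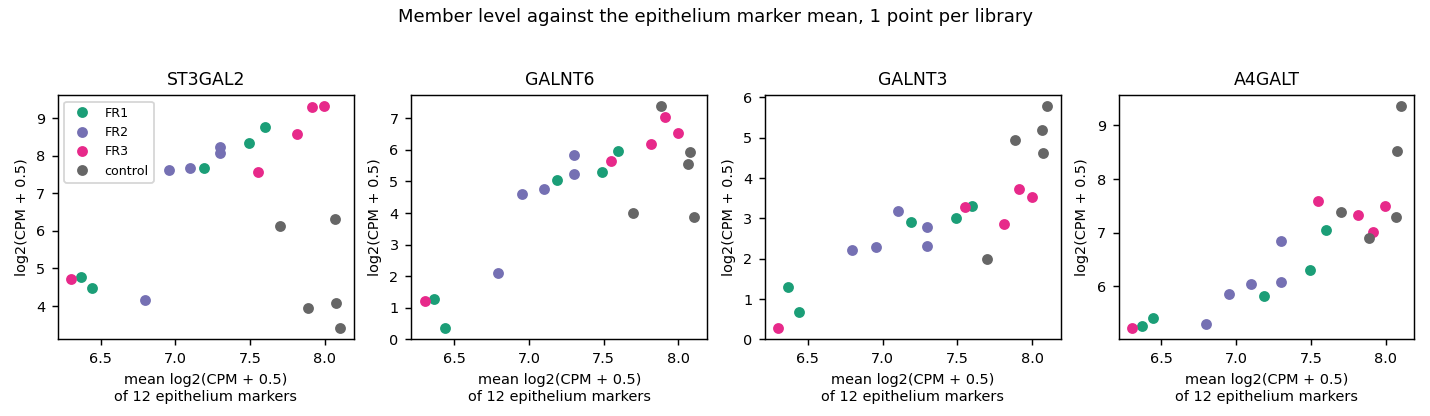
Level of 4 genes, as log2(CPM + 0.5) on the vertical axis, against the mean log2(CPM + 0.5) of 12 epithelium markers on the horizontal axis, with 1 point per library coloured by group. The 4 inseminated libraries with the lowest epithelial mean (6.30 to 6.80) have the lowest ST3GAL2, GALNT6 and A4GALT of the inseminated libraries, and controls lie at 7.70 to 8.10 with ST3GAL2 below most inseminated libraries.

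The genes of sulfate addition and glycosaminoglycan synthesis gave 1 higher and 1 lower gene of 16 tested (12.5%, near the 11.1% of all genes). CHSY1 polymerises the chondroitin chain. It was at 31.5, 50.4, 42.5, 47.0 and 40.2 CPM in FR1_1 to FR1_5, at 57.4, 59.3, 58.4, 65.2 and 42.6 CPM in FR2_1 to FR2_5 and at 35.4, 34.7, 37.4, 31.2 and 32.4 CPM in FR3_1 to FR3_5. Controls were at 31.2, 17.6, 20.3, 25.4 and 24.2 CPM in CONTROL_1 to CONTROL_5. In 14 inseminated libraries the level was above every control. All FR2 libraries were above all FR3 libraries, but edgeR did not call this difference. The share of all genes that separate FR2 from FR3 was not counted. The log2 change of all inseminated against control was 0.87 ± 0.14 (adjusted p = 0.000599), and 0.67 (adjusted p = 0.0519) without CONTROL_2, CONTROL_3 and CONTROL_4. The stromal fibroblast markers LUM and PDGFRA, of 7 tested, were called higher (log2 change 1.42 and 1.55). The summed level of that list was 4494 to 16975 CPM in inseminated and 1582 to 8463 CPM in control libraries. The part of stromal content in the CHSY1 level was not tested.

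CHST7, which sulfates N-acetylglucosamine and chondroitin, was at 4.70, 10.1 and 13.6 CPM (lowest, median and highest) in inseminated libraries, against 8.41, 13.1, 72.2, 104 and 12.8 CPM in controls. CONTROL_3 and CONTROL_4 were above every inseminated library and the other 3 controls were within their range. The change was -2.22 ± 0.39 (adjusted p = 0.00138), and -0.21 (adjusted p = 0.792) without CONTROL_2, CONTROL_3 and CONTROL_4. SLC9A7, which overlaps it in RefSeq, was not high in these libraries (3.57 CPM in CONTROL_3 and 6.64 CPM in CONTROL_4, against 4.19 to 20.3 CPM in inseminated libraries). CHST4, an enzyme of L-selectin ligands in lymph node vessels, was among the genes too low to test.

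**Figure D4:**
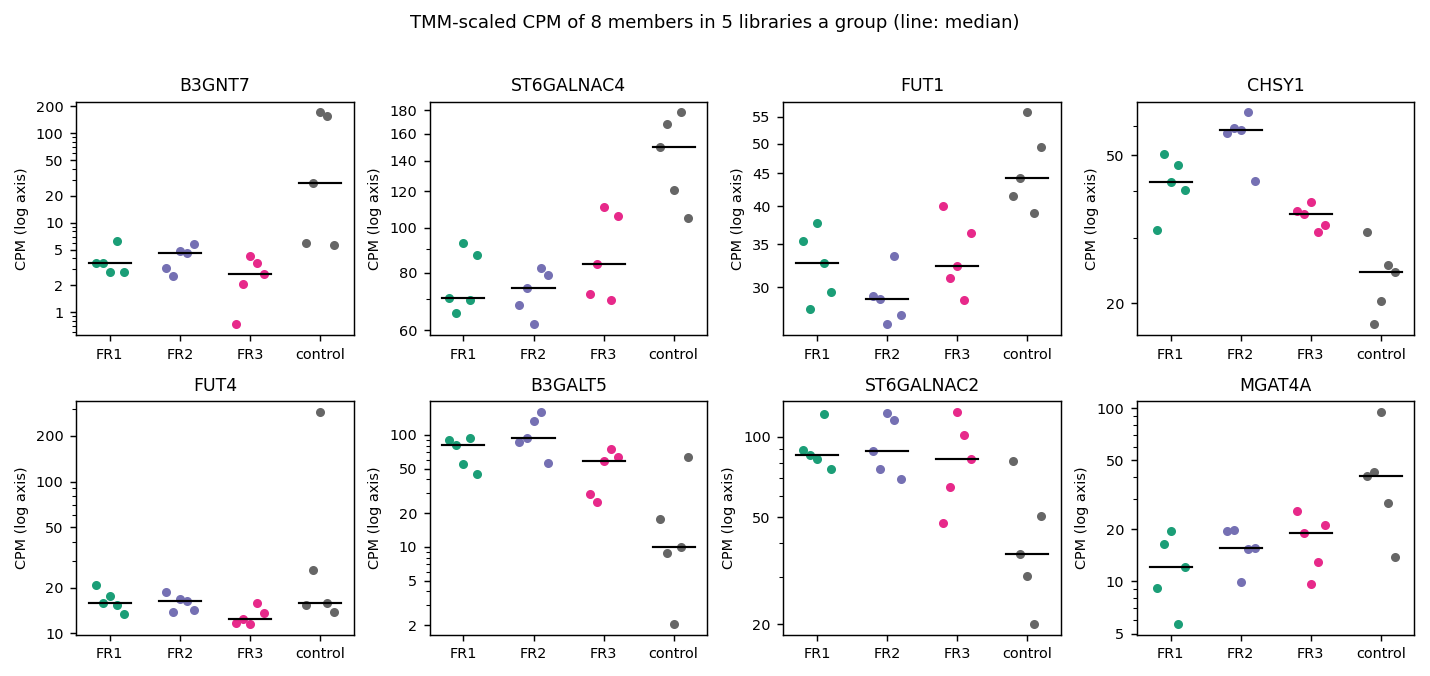
TMM-scaled CPM (log axis) of 8 called genes, with 1 point per library in FR1, FR2, FR3 and control, and a line at each group median. In B3GNT7, FUT4 and MGAT4A the controls spread far more widely than the inseminated groups, whereas in FUT1, ST6GALNAC4 and CHSY1 the groups are compact. FR2 lies above FR3 in CHSY1, a difference that edgeR did not call.

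The fractions were then compared with control separately. The 3 comparisons share the same 5 controls, so their calls are not independent of each other. FR1 had 1 higher and 5 lower genes of the 89 (all genes, 2.6% called, 0.609% higher and 1.99% lower). FR2 had 3 higher and 9 lower genes (all genes, 5.55% called, 1.57% higher and 3.98% lower), and FR3 had 5 lower genes and none higher (all genes, 4.27% called, 1.43% higher and 2.85% lower). B3GNT7, ST6GALNAC4 and CHST7 were called in each of them, 14 genes in at least 1, and 8 genes only in the comparison of all 15 inseminated libraries with control. Such overlap of calls between fractions was not counted over all genes. Leaving out 1 library moved the counts. The 6 of FR1 were 12 without CONTROL_1, 17 without CONTROL_5, 3 without CONTROL_3, FR1_1, FR1_4 or FR1_5 and 2 without FR1_2. Over all genes the 461 calls of FR1 were 855 without CONTROL_1, 1372 without CONTROL_5 and 151 without CONTROL_3. They were 99 to 142 without FR1_1, FR1_2, FR1_4 or FR1_5. The 12 of FR2 were 21 without CONTROL_5, 6 without FR2_2, 5 without CONTROL_3 or FR2_5 and 4 without FR2_1, FR2_3 or FR2_4. Over all genes the 985 calls of FR2 were 1881 without CONTROL_5 and 425 without CONTROL_3. They were 309 to 510 without 1 FR2 library. The 5 of FR3 were 12 without CONTROL_1 and 18 without CONTROL_5. They were 3 without FR3_3 or FR3_5, 2 without CONTROL_3 or CONTROL_4 and 1 without FR3_1 or FR3_2. Over all genes the 758 calls of FR3 were 1377 without CONTROL_1 and 1869 without CONTROL_5. They were 475 and 356 without FR3_3 and FR3_5, and 214 and 452 without CONTROL_3 and CONTROL_4. Without FR3_1 and FR3_2 they were 74 and 58. In each of these repeats the count over all genes moved in the same direction as that of the 89. None of these counts held when only the libraries of the 2 groups entered the fit: no gene of the 89 was then called in any fraction, and over all genes 0, 1 and 0 were called for FR1, FR2 and FR3.

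B3GNT7 changed by -4.28 ± 0.81 in FR1 (adjusted p = 0.0122), by -4.16 ± 0.80 in FR2 (adjusted p = 0.00829) and by -4.79 ± 0.83 in FR3 (adjusted p = 0.0107) on the log2 scale. ST6GALNAC4 changed by -0.90 ± 0.18 in FR1, -0.99 ± 0.18 in FR2 and -0.71 ± 0.18 in FR3 (adjusted p = 0.013, 0.00653 and 0.0314). CHST7 changed by -2.07 ± 0.55 in FR1, -2.08 ± 0.55 in FR2 and -2.52 ± 0.56 in FR3 (adjusted p = 0.0493, 0.0337 and 0.0212). The remaining FR1 calls were CHSY1, MGAT4A and A4GALT. FR2 further called GCNT7, FUT1, MGAT4A, A4GALT, GALNT3, GCNT3 and, as higher genes, CHSY1, ST6GALNAC2 and B3GALT5. FR3 further called B3GNT2 and FUT4. CHSY1 was 0.83 ± 0.16 higher in FR1 (adjusted p = 0.0131) and 1.25 ± 0.16 higher in FR2 (adjusted p = 0.00397) on the log2 scale, while its FR3 value of 0.53 ± 0.16 was not called (adjusted p = 0.0709). A call in one fraction and not in another does not show that the fractions differ, which the following comparisons tested.

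Between fractions, edgeR called none of the 89 genes. For FR2 against FR1, 2 genes had an unadjusted p below 0.05 (all genes, 0.733%), and no gene of the series was called. For FR3 against FR1 there were 6 such genes (all genes, 8.29%), again with no gene of the series called. For FR3 against FR2 there were 8 (all genes, 7.37%), and 0.00564% of all genes, a single gene outside the 95, was called. DESeq2 called none of the 89 for FR2 against FR1 or FR3 against FR1, and called CHSY1 alone for FR3 against FR2 (-0.70, adjusted p = 0.0196). Over all genes DESeq2 called 0, 12 and 21 in these comparisons, in the order given. Relative log expression factors, limma-voom and both other filters called none of the 89.

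The members with the 2 smallest unadjusted p in each of these comparisons were CHST8 and CHSY1 for FR2 against FR1, FUCA2 and B3GNT8 for FR3 against FR1, and CHSY1 and B4GALT7 for FR3 against FR2. CHSY1 averaged 34.2 ± 2.45 CPM in FR3 and 56.6 ± 8.40 CPM in FR2 (SD, n = 5 each), a log2 difference of -0.73 ± 0.16 (adjusted p = 0.488), and its difference between FR2 and FR1 was 0.42 ± 0.16. FUCA2, a secreted fucosidase, averaged 115 ± 38.1 CPM in FR3, 69.4 ± 14.0 CPM in FR2 and 55.6 ± 11.4 CPM in FR1. Its log2 difference was 1.04 ± 0.26 between FR3 and FR1 (adjusted p = 0.586) and 0.72 ± 0.26 between FR3 and FR2 (adjusted p = 0.666). B3GNT8 averaged 2.10 ± 0.814 CPM in FR3 and 5.57 ± 2.71 CPM in FR1, a log2 difference of -1.41 ± 0.39 (adjusted p = 0.586); FR3_3, at 0.657 CPM, lay below the other FR3 libraries. B4GALT7, an enzyme of the sugar linker of proteoglycans, averaged 27.5 ± 5.43 CPM in FR3 and 19.4 ± 2.46 CPM in FR2, a log2 difference of 0.50 ± 0.17 (adjusted p = 0.666). CHST8 averaged 0.0314 ± 0.048 CPM in FR2 and 0.605 ± 0.487 CPM in FR1, a log2 difference of -4.17 ± 1.51 that did not pass the test.

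**Figure D5:**
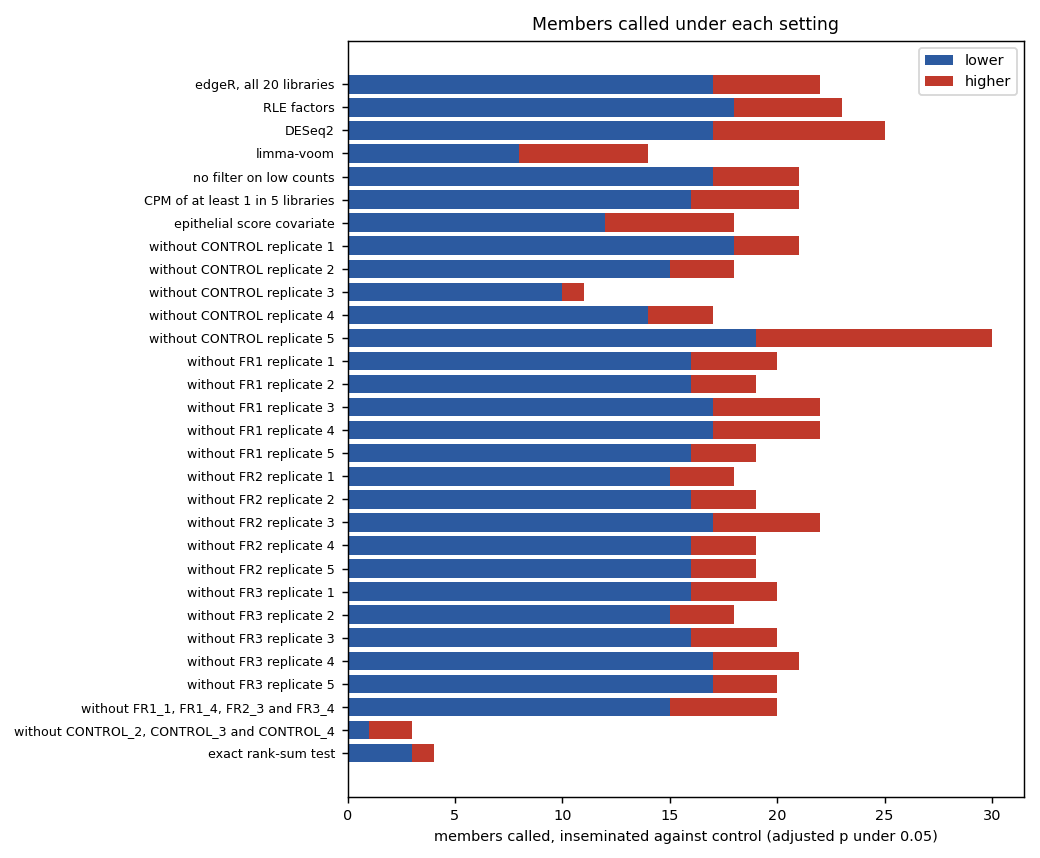
Number of the glycosyltransferase and related genes called in all inseminated against control uteri (horizontal axis) under each setting, with lower genes in blue and higher genes in red. The bars run from 3, without CONTROL_2, CONTROL_3 and CONTROL_4, to 30, without CONTROL_5, against 22 with all 20 libraries. The counts over all genes, not drawn, were 523 and 2730 in these settings, against 1965.

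Genes that work beside these enzymes were read from lists of the same pathway, in all inseminated against control. Of 22 tested proteins that carry such chains, 5 were lower and 1 higher. They included the cell-surface mucins MUC1 (2.06 to 21.1 CPM in inseminated libraries and 3.00 to 89.0 CPM in controls, log2 change -3.51 ± 0.48) and MUC4 (0.461 to 12.7 CPM in inseminated libraries and 0.695 to 879 CPM in controls, -6.53 ± 0.82). The proteoglycan SDC4 was lower as well (-2.67 ± 0.43). MUC20 was lower by the same test (log2 change -6.89) at a median of 0.0228 CPM in inseminated libraries. The summed level of the listed carrier proteins was 381, 615, 1482, 1270 and 346 CPM in CONTROL_1 to CONTROL_5. In inseminated libraries the sum was 299 to 430 CPM. Repeats without single libraries or with the epithelial score are not given here for the genes of this and the following lists.

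Makers and carriers of the sugar and sulfate donors gave 4 higher and 4 lower genes of 27. SLC26A2, a sulfate importer, was at 61.7 to 103 CPM in inseminated libraries and at 33.5 to 67.9 CPM in controls (0.82 ± 0.16). FPGT, of the fucose salvage pathway, was at 18.6 to 37.7 CPM in inseminated libraries and at 7.66 to 18.1 CPM in controls, with no overlap (1.02 ± 0.20). SLC35C1, the Golgi carrier of GDP-fucose, was lower (-1.02 ± 0.22), and GFPT2, an entry enzyme of the hexosamine pathway, was higher (1.51 ± 0.34).

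Among 35 tested genes of the glycosaminoglycan backbone and its sulfation, 3 were higher and 3 lower. EXTL1 (2.22 ± 0.44) and EXTL2 (0.89 ± 0.22), relatives of the heparan sulfate polymerases, were higher. EXT2, a heparan sulfate polymerase subunit (-0.43 ± 0.11), and NDST3, a heparan sulfate sulfotransferase (-2.77 ± 0.62), were lower. For NDST3 only 1 control, at 39.3 CPM, lay above every inseminated library. Its control median was 2.62 CPM, against 0.273 to 3.70 CPM in inseminated libraries. Of 20 glycosidases, 2 lysosomal enzymes were lower, GLB1 (-2.23 ± 0.31) and HEXA (-0.77 ± 0.16), and none was higher. The core and poly-N-acetylgalactosamine enzymes had 1 lower gene of 11 (B3GALNT1, -1.96 ± 0.32). The O-fucose and fringe enzymes had 1 lower gene of 7 (POFUT2, -0.48 ± 0.15), the lectins 1 lower of 15 (LGALS9, -1.26 ± 0.37) and the polysialyl and sialic acid modifying enzymes none of 7. For each list the background is the 11.1% of all genes called in this comparison. Of the other cell-type lists, 2 of 5 neutrophil genes were lower, and none of 6 endothelium and 8 leukocyte genes was called.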

How the data were processed

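Poly-A RNA of 20 sow uteri was sequenced in pairs on an Illumina NovaSeq, per the labels' protocols, which describe both a stranded and an unstranded second-strand step. The submitters' processing notes name CASAVA, STAR 2.7.9a and Salmon 1.10.1. No genome build is given in the sources used here. The authors deposited estimated counts per gene (87.2% whole numbers), which were rounded. Of 30369 rows, 24 name no gene and were left out (0.0036% to 0.0133% of a library's counts).

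Tests used edgeR 4.0.16 under R 4.3.3: TMM factors, filterByExpr, all 20 libraries in 1 fit with 16 residual degrees of freedom, the 2-sided quasi-likelihood test, and Benjamini-Hochberg adjustment over 17745 genes. All log2 changes are fitted on counts; a standard error is the change divided by the square root of F. With 1 uterus piece per sow, p-values measure the spread between sows. The procedure was tested on simulated data. Alternatives used DESeq2 1.42.0, limma-voom (limma 3.58.1), other scalings, filters and libraries. No pair of the 190 library pairs was near sampling noise (lowest chi-square per gene 44.4).

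Genes named are all members called in any of 7 comparisons and a panel of 19; of other lists, up to 4 called genes. GALNT6, FUCA2, B3GNT8, CHST8, B4GALT7 and the overlapping genes were named after their values were seen. Members and lists were chosen with earlier results of these data known. Levels are not per length, so they are compared within a gene only.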

Additional observations from a re-analysis of the deposited data

Results flagged for a closer look

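Among 154 sets of 5 libraries (each named gene of the 95 in each group), 17 held a library far from the rest. Its gap to its nearest neighbour exceeded the critical share of the range, 0.71. That value is set to pass about 1 set in 20 of normally distributed values. The levels here were CPM without a log, and many of the genes were named because they were called. The 1 in 20 is therefore not a rate to hold the 17 against. In controls the library apart was CONTROL_3 for B3GNT2 (74.3 CPM), B3GNT3 (191 CPM), FUT4 (287 CPM), GALNT15 (53.0 CPM) and GCNT7 (22.9 CPM). It was CONTROL_4 for B4GALT4 (74.5 CPM), GALNT12 (41.5 CPM) and GCNT3 (12.5 CPM), and CONTROL_5 for B3GALT5 (63.6 CPM).

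In FR1 the library apart was FR1_4 for B3GNT7 (6.32 CPM) and ST6GALNAC2 (121 CPM), and FR1_2 for FUT8 (38.2 CPM). In FR2 it was FR2_5 for B4GALT4 (18.8 CPM), FR2_2 for GCNT7 (0.504 CPM) and FR2_3 for ST3GAL4 (26.8 CPM). In FR3 it was FR3_5 for B3GALT2 (4.55 CPM) and FR3_3 for B3GNT8 (0.657 CPM). The B3GNT8 value was below the rest of its group and the other 16 were above.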

How the results depend on the processing

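No paired analysis was possible because the sows carry different numbers in every group. For all inseminated against control, 22 genes were called; limma-voom called 14 (8 lower and 6 higher), DESeq2 25 (with no adjusted p for FUT4 and GALNT15), the rank-sum test 4, fits without CONTROL_2, CONTROL_3 and CONTROL_4 called 3, and fits that left out 1 library 11 (without CONTROL_3) to 30 (without CONTROL_5). The 6 calls of FR1 became 16 with DESeq2, 3 with limma-voom, 0 with only the groups compared, 0 without FR1_1, FR1_4, FR2_3 and FR3_4, 2 without CONTROL_2, CONTROL_3 and CONTROL_4, and 2 to 17 with 1 library left out. The 12 calls of FR2 became 21, 7, 0, 7 and 5 under these settings in the same order, and 4 to 21 with 1 library left out. The 5 calls of FR3 became 21, 2 and 0 under DESeq2, limma-voom and only the groups compared, 18 with the epithelial score, 0 without the 3 controls, and 1 to 18 with 1 library left out. These counts are not always of the same genes. The calls shared with the main fit were 6 in FR1, 12 in FR2 and 4 in FR3 with DESeq2. With limma-voom 2, 6 and 1 were shared, and without the 3 controls 0, 2 and 0. DESeq2 called 1 gene between FR3 and FR2.

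Signs turned without CONTROL_2, CONTROL_3 and CONTROL_4 for B3GALT2 (0.75), B3GNT3 (0.093), B4GALT5 (0.37), FUCA1 (0.43), FUT2 (0.50), FUT4 (0.066), FUT8 (0.30) and GALNT6 (0.30). They turned with the epithelial score for FUCA1 (0.22), FUT2 (0.30), GALNT6 (1.42), GCNT1 (0.75) and ST3GAL4 (-0.0038), without CONTROL_3 for B3GNT3 (0.40), FUCA1 (0.12) and GALNT15 (0.28), without CONTROL_4 for GALNT12 (0.15) and GALNT6 (0.14), and in rank-sum medians for B3GNT3 (0.18), FUCA1 (0.31) and GALNT15 (0.29). With 1 library left out B3GNT3 ran from -1.96 to 0.40, FUCA1 from -0.40 to 0.12, GALNT12 from -0.88 to 0.15, GALNT6 from -0.97 to 0.14 and GALNT15 from -2.83 to 0.28. The cause was not tested. The other log2 values under alternatives stood on the same side of 0 and of the threshold in 1447 cases, fell short of it in 337 and passed it in 9. The 6 genes too low to test could not be compared at this depth.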
